A study of Drosophila melanogaster with 12 samples.

Results

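The protein-coding genes of chromosome 4 of Drosophila melanogaster were examined in ChIP-seq peak lists for RNA Polymerase II phosphorylated on Serine 5 (Pol II S5). The members were all genes of chromosome 4 with the biotype protein_coding in the Ensembl annotation of the Release 6 genome (dm6), leaving out 5 whose symbols mark a ribosomal protein (RpS3A), a respiratory chain or ATP synthase subunit (ND-49, ATPsynbeta) or a subunit of Mediator or TFIID (MED26, Taf3). This left 75 of the 80 protein-coding genes of the chromosome, among 13945 on the 6 chromosome arms analysed. The reference was the 13683 genes of the other arms that the same symbol rule kept.

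The libraries came from Kc167 cells, a female line of embryonic origin with hemocyte character, in 3 groups of 2 replicates. AGO2 KD cells were transfected with an siRNA against AGO2 (siAGO2), LaminB KD cells with a dsRNA against LaminB (dsLaminB), and mock cells went through the same transfection with no RNA. Knockdown was by RNA interference in transfected cells of 1 line, with no mutant allele, so that a remainder of each protein can persist. Each library had its own input library, which was used only when the authors called peaks, and the labels do not say whether replicates were separate cultures, so the spread between them may be technical.

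Chromosome 4, the dot chromosome, is the smallest autosome of the fly, and its gene-bearing arm is a mosaic of genes and transposon remnants packaged with heterochromatin protein 1 (HP1a). Methylation of histone H3 on lysine 9 there depends largely on the methyltransferase Setdb1 (eggless), and the protein Pof binds its active genes, which are nevertheless transcribed in this setting. Phosphorylation of Serine 5 of the Pol II C-terminal repeats by the kinase of TFIIH accompanies initiation and promoter clearance, so that Pol II S5 is usually densest just after the gene start and thins out along the gene.

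The deposited lists held 5532 and 6631 peaks in the AGO2 KD libraries, 8541 and 5108 after LaminB KD and 6435 and 7162 in mock. The LaminB KD replicates therefore held the most and the fewest peaks of all 6 libraries, and every LaminB KD mean below is given with both values. Of the 10 hemocyte markers examined, 7 had a promoter peak in every library (ush, vkg, Col4a1, LanB1, Pxn, Hml and srp). So did 1 of 11 markers of other lineages (Mef2), against 39.9% of all protein-coding genes. The hemocyte markers He, NimC1 and eater had no promoter peak in any library. Of the other lineage markers, elav had a promoter peak in 5 libraries, nSyb in 4 and Jon25Bi in 1, and the germline gene vas had none but was covered for 9.85% to 24.9% of its span in all 6 libraries, more than vkg and Col4a1 in each. Such coverage counts every peak over the span, including any that belongs to another gene there, so it cannot be assigned to vas. Both targeted genes kept a promoter peak in all 6 libraries, which does not check a knockdown that acts on the finished transcript. A peak list has no read counts, so the sequencing depth is unknown here, and a gene with no peak is one at which the enrichment did not pass the authors' threshold.

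Peaks covered less of chromosome 4 than of the other arms in every library. On chromosome 4 there were 37 and 45 peaks after AGO2 KD, 76 and 29 after LaminB KD and 52 and 58 in mock, and they covered 1.59% and 2.42% of the chromosome after AGO2 KD, 5.22% and 1.22% after LaminB KD and 2.86% and 3.53% in mock. The share of the other arms under peaks was 4.19% and 6.02% after AGO2 KD, 11% and 3.15% after LaminB KD and 6.21% and 7.88% in mock. Of the chromosome 4 peaks, 48.3% (LaminB KD replicate 2) to 56.8% (AGO2 KD replicate 1) lay within 500 bp of an annotated start of a member.

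The gene bodies of chromosome 4 were sparsely covered. Body coverage is the percent of a gene of 2 kb or more, from 500 bp after its start to its end, that lay under peaks; 72 members and 7312 genes of the other arms were long enough. It averaged 1.47% and 2.26% over the members after AGO2 KD, 4.65% and 1.19% after LaminB KD and 2.43% and 2.92% in mock. Over the genes of the other arms it averaged 7.51% and 12.9% after AGO2 KD, 27.1% and 5.57% after LaminB KD and 13% and 17.8% in mock. The members thus had 16.4% to 21.3% of the body coverage of the other genes within the same library. Chromosome 4 minus the other arms came to −11.5 percentage points on average (range −22.5 to −4.38, lower in 6 of 6 libraries, p = 0.03125, exact two-sided sign-flip permutation test over libraries, the smallest p that 6 libraries allow). The 6 libraries share 1 cell line and the same genes. In this and each later sign-flip test over libraries, p therefore measures how well the sign repeated over libraries and not the spread between genes.

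Promoters were also less often occupied. A promoter peak is a peak reaching within 500 bp of any annotated start, and it was present at 20 and 22 of the 75 members after AGO2 KD, 38 and 13 after LaminB KD and 27 and 27 in mock. As shares of the members these are 26.7% and 29.3% after AGO2 KD, 50.7% and 17.3% after LaminB KD and 36% and 36% in mock. Of the other genes 45.0% and 48.4% had one after AGO2 KD, 55.0% and 40.2% after LaminB KD and 49.6% and 51.5% in mock. The members' share was 43.1% to 92.1% of that of the other genes within the same library, and the difference averaged −15.6 points (range −22.9 to −4.36, lower in 6 of 6 libraries, p = 0.03125, same exact test). Among the 6 arms, chromosome 4 was the lowest in mean body coverage in 6 of 6 libraries and in the share of genes with a promoter peak in 5 of 6, the exception being LaminB KD replicate 1, where arm 2L was lower.

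**Figure D1:**
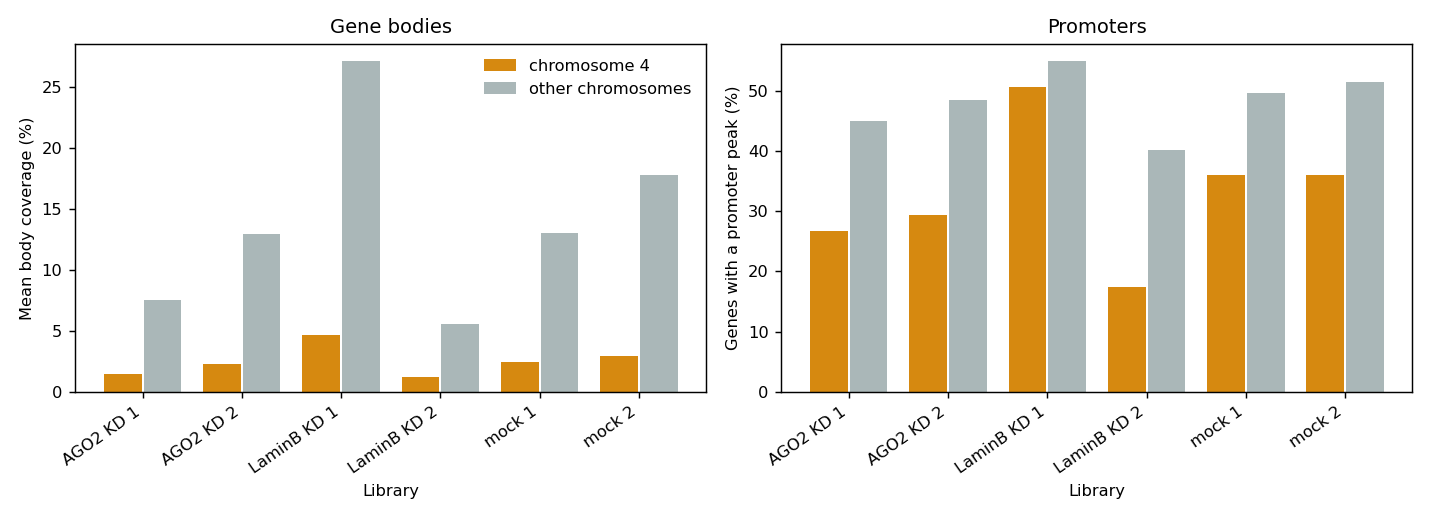
Mean body coverage (left, percent of the gene body under peaks) and the percent of genes with a promoter peak (right) in each of the 6 libraries, with chromosome 4 as the orange bar and the other chromosomes as the grey bar. The orange bar is the shorter one in every library, at 1.19% to 4.65% against 5.57% to 27.1% for bodies and 17.3% to 50.7% against 40.2% to 55.0% for promoters.

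The gap in the gene bodies was also present among genes that had a promoter peak. In that subset body coverage averaged 5.59% and 7.75% over the members after AGO2 KD, 9.28% and 6.30% after LaminB KD and 6.63% and 7.83% in mock, against 12.9% and 20.9% over the other genes after AGO2 KD, 39.6% and 10.3% after LaminB KD and 20.6% and 27.4% in mock. Exons of the members were covered for 1.73% to 8.30% of their bases and introns for 0.803% to 3.5%, against 8.56% to 30.0% and 1.58% to 6.15% in the other genes, so that both kinds of sequence were lower on chromosome 4 and exons exceeded introns in both sets.

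The members differ from the other genes in length and sequence. The part of length in the body coverage was not tested beyond the classes given below, and the part of GC content was not tested. Their median length was 10484 bp against 2176 bp, and soft-masked repeats made up a median of 25.3% of a member against 8.37% of another gene. The median GC content was 34.6% against 45.7%, and annotated transposable elements took a median of 11% of a member and 0% of another gene. The authors discarded reads of low mapping quality, which are frequent in repeats. On unmasked bases alone (an alternative chosen after seeing the data) the difference in body coverage was −11.5 points (p = 0.03125, same exact test), as large as on all bases. Those reads were already gone when peaks were called, and soft-masking does not mark where reads can map. The part of repeats and mapping in the gap was therefore not tested.

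The gap in promoter peaks was widest among genes of 5 to 15 kb. In that class 15.2% and 21.2% of the 33 members had a promoter peak after AGO2 KD, 48.5% and 6.06% after LaminB KD and 30.3% and 30.3% in mock. Of the 2082 other genes of that class 60.6% and 64.3% had one after AGO2 KD, 70.6% and 55.9% after LaminB KD and 65.3% and 67.7% in mock. Under 5 kb the shares of the 15 members were 26.7% to 53.3% against 35.6% to 50.3%, and LaminB KD replicate 1 was higher on chromosome 4 there. Body coverage at 15 kb or more was 0.768% to 3.64% over 27 members against 1.08% to 6.23% over 1331 other genes, and over all genes of 5 kb or more the promoter difference was −29.6 points and the body difference −6.38 points (p = 0.03125 each, same exact test).

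**Figure D2:**
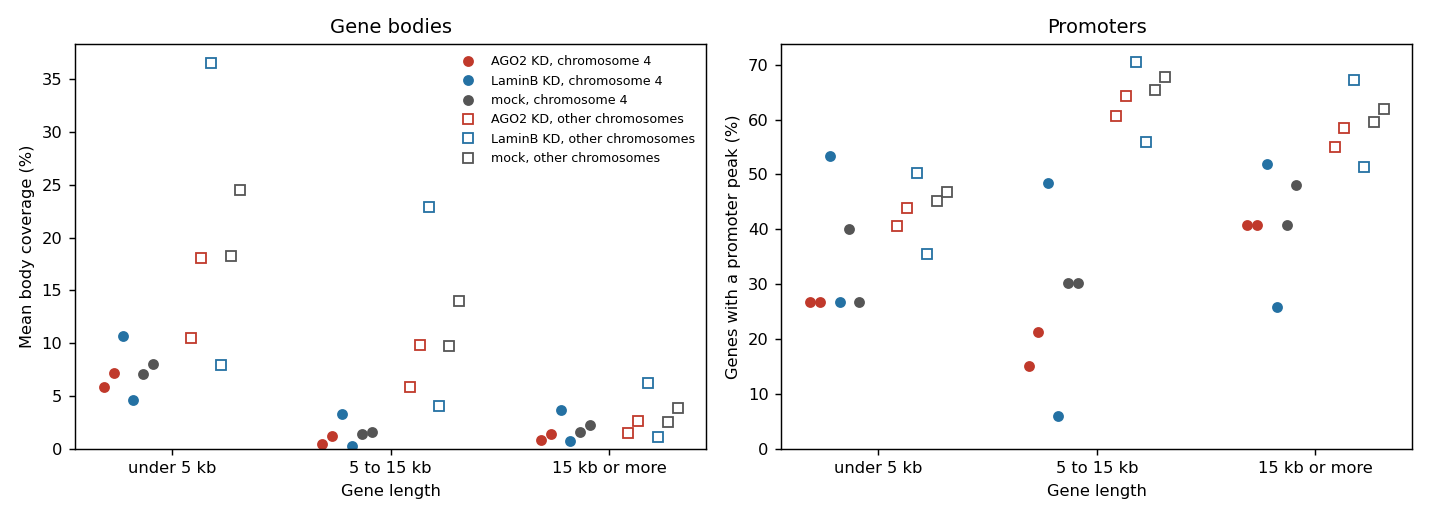
Mean body coverage (left) and the percent of genes with a promoter peak (right) in 3 classes of gene length, with 1 point per library: filled circles for chromosome 4 and open squares for the other chromosomes, in red for AGO2 KD, blue for LaminB KD and grey for mock. At 5 to 15 kb the circles for promoters lie between 6.06% and 48.5%, all below the squares at 55.9% to 70.6%.

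Around the gene start the members showed a narrow maximum. The share of genes whose 100 bp bin lay under a peak reached 18.1% and 19.4% of the 72 members after AGO2 KD, 34.7% and 8.33% after LaminB KD and 26.4% and 23.6% in mock, in bins centred 50 bp before to 250 bp after the start. In the other genes the maxima were 45.3% and 48.8% after AGO2 KD, 56.8% and 37.3% after LaminB KD and 51.7% and 53.4% in mock, 50 or 150 bp after the start. At 2050 bp after the start 0% to 1.43% of the members were covered, against 4.90% to 25.9% of the other genes. As a percent of the other genes the members stood at 22.3% to 61.1% at the maximum and 0% to 13.2% at 2050 bp, while in points the gap was narrower at 2050 bp in 5 of 6 libraries. The values at 2050 bp rest on very few of the 70 members long enough for that bin, and some later bins were higher in each library. Among the bins farther into the gene the members' highest value was 9.84% at 4150 bp in LaminB KD replicate 1, against 16.1% of the other genes. In the other 5 libraries it was 1.64% to 4.35%, against 2.1% to 9.82%. Each is the maximum over many bins, in a bin with 61 to 69 members, so that a few genes set it. Upstream, 450 bp before the start, the values were 2.78% to 5.56% and 17.2% to 35.9%.

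**Figure D3:**
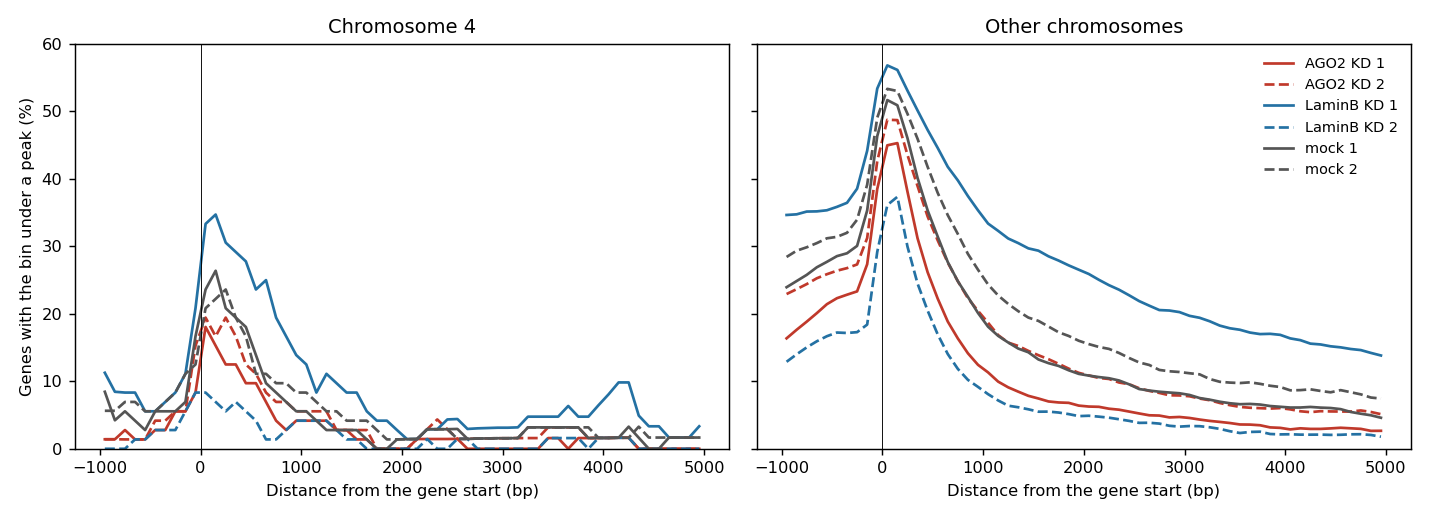
Percent of genes of 2 kb or more whose 100 bp bin lies under a peak, by distance from the gene start in bp, for chromosome 4 (left) and the other chromosomes (right), with 1 line per library (red AGO2 KD, blue LaminB KD, grey mock; solid replicate 1, dashed replicate 2). The chromosome 4 lines are at 1.43% or less at 2050 bp, where the other chromosomes stand at 4.90% to 25.9%, and the LaminB KD replicate 1 line climbs to 9.84% at 4150 bp.

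Single peaks on chromosome 4 were narrower. Their median width was 346 and 488 bp after AGO2 KD, 776.5 and 397 bp after LaminB KD and 552.5 and 617.5 bp in mock, against 632 and 745 bp on the other arms after AGO2 KD, 911 and 497 bp after LaminB KD and 781 and 857 bp in mock. The difference averaged −207.6 bp (range −286 to −100, narrower in 6 of 6 libraries, p = 0.03125, exact sign-flip test). The median fold over input was nearly alike, with a log2 ratio of chromosome 4 over the other arms of −0.083 (6 of 6 libraries, p = 0.03125, same exact test) that lost its call when equally many peaks were taken from each library (−0.027, p = 0.6875) or only peaks near gene starts (−0.076, p = 0.21875), and that turned positive among the upper 50% of peaks by score (0.12, p = 0.0625, all exact).

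Member by member, Pol II S5 peaks were present in every library at a minority of the genes, in only some libraries at others and in none at the rest. A peak lay over the span of 15 members in all 6 libraries and over none of 35 in any, which are 20% and 46.7% of the members, against 37.9% and 43.8% of the other genes. The share with no peak at all was thus near that of the other genes, while members with a peak in a single library or in a pair of libraries were more frequent, at 15 of the 40 with any peak (37.5%) against 904 of 7693 (11.8%). A promoter peak was present in all 6 libraries at 13 members, namely pan, Rad23, Zip102B, Asator, zfh2, Tdg, Pur-alpha, CG11360, myo, unc-13, toy, Mpv17 and CG11076, or 17.3% against 39.4% of the other genes. At Ank, CaMKI, Asator and CaMKII the promoter peak lay at a downstream start and the 5′-most start had none in any library.

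**Figure D4:**
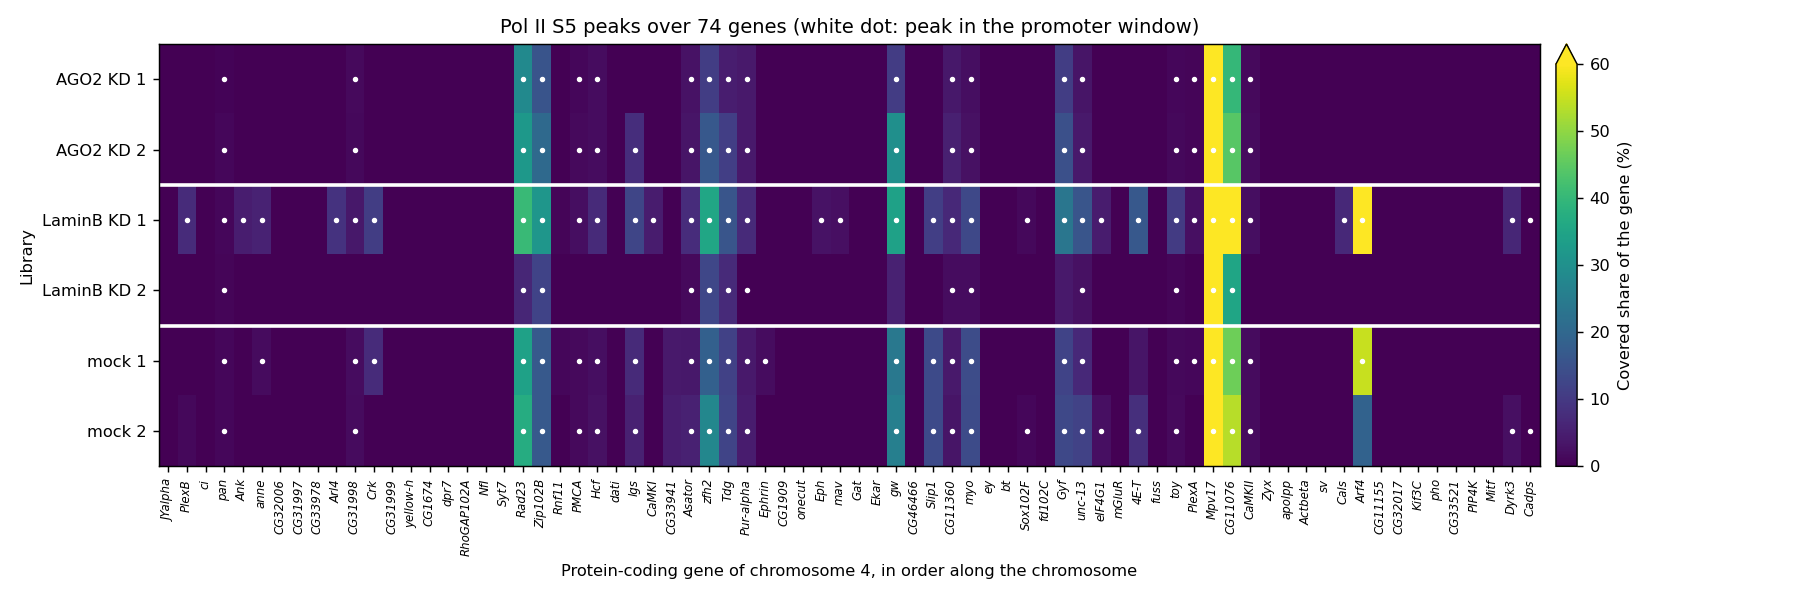
Covered share (percent of the gene's span under peaks, colour scale ending at 60%) of 74 of the 75 members in their order along chromosome 4, 1 row per library, with a white dot where the promoter window held a peak. Mpv17 and CG11076 stand out in every row, most columns are dark throughout, and LaminB KD replicate 1 has dots at 37 of those drawn against 13 in LaminB KD replicate 2.

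The covered share, the percent of a gene's whole span under peaks, was highest in every library at Mpv17. This gene, the fly homolog of a protein of the mitochondrial inner membrane (FBgn0039930, chr4:1028675-1029361, minus strand), is the shortest member at 687 bp. Its covered share was 86.2% and 100% after AGO2 KD, 100% and 67.5% after LaminB KD and 89.2% and 96.5% in mock, and its peak rose 4.01 to 5.86 fold over input. An antisense RNA, asRNA:CR44031, overlaps it on the other strand, and ChIP cannot tell the strands apart.

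CG11076 came next (FBgn0039929, chr4:1029711-1031757, minus strand), with 39.9% and 44.4% after AGO2 KD, 62.9% and 35.2% after LaminB KD and 46.8% and 53.5% in mock. Its start overlaps that of ATPsynbeta on the plus strand, so the peak at the start belongs to both genes. A second peak, 717 to 960 bp wide in the 5 libraries other than LaminB KD replicate 1, began 795 to 917 bp after the 5′-most start of CG11076. It lay inside this gene alone, with a fold of 3.76 to 6.73. CG11076 has 3 annotated starts, and this peak reached within 500 bp of a downstream one, so it also counts as a promoter peak. In LaminB KD replicate 1 a single peak of 2491 bp joined this stretch to Mpv17.

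Zip102B, of the ZIP family of zinc transporters (FBgn0039902, chr4:310930-314087, minus strand), and Rad23, which acts in nucleotide excision repair and carries ubiquitylated proteins to the proteasome (FBgn0026777, chr4:308093-310822, plus strand), are neighbours whose 3′ ends face each other. Zip102B was covered for 15.5% and 20.5% after AGO2 KD, 31.6% and 12% after LaminB KD and 16.8% and 16.8% in mock. Rad23 was covered for 28.5% and 32.1% after AGO2 KD, 40.7% and 6.45% after LaminB KD and 34.3% and 37.0% in mock. At Rad23 LaminB KD replicate 2 was the low library, with a single peak of 176 bp in place of one of 792 to 1058 bp.

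zfh2, a zinc finger and homeodomain transcription factor (FBgn0004607, chr4:501810-540874, plus strand), was the only long gene among the 5 with the highest minimum over libraries. Its covered share was 11% and 16.6% after AGO2 KD, 35.6% and 12.8% after LaminB KD and 18.5% and 27.8% in mock. It carried 6 and 9 separate peaks after AGO2 KD, 12 and 6 after LaminB KD and 8 and 11 in mock, the first over its start at 4.15 to 7.55 fold. A peak of 1892 to 2058 bp that began 4948 to 5041 bp after the start was about as wide as the one at the start (1568 to 2158 bp). Further peaks recurred in all 6 libraries, beginning 17370 to 17692, 23175 to 23310 and 25755 to 26096 bp after the start, so that occupancy of zfh2 reached far into the gene in every library.

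Promoters of the 2 members with the highest minimum covered share and of the 3 longest members with no peak over their span are shown. The promoters were chosen by peaks over the gene's span and not by peaks in the window shown. Each runs 5′ to 3′ from 250 bp before the 5′-most start to 30 bp after it on the RefSeq Release 6 genome, in lower case with motif matches in capitals. Matches to 4 motifs were searched on both strands. One is TATCGATA, the DNA replication-related element (DRE) of many housekeeping promoters. Another is the E-box CAGCTG. The third is TATAAA, the core of the box bound by the TATA-binding protein. The last is GAGAG, the motif of GAGA factor. In these 5 promoters, matches were found only to the third and the last of them.
Mpv17: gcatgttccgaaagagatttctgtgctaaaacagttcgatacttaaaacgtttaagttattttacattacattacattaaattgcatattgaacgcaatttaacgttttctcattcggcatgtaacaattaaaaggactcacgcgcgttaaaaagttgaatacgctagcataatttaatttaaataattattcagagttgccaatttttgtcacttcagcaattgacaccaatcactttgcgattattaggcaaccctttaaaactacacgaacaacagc
CG11076: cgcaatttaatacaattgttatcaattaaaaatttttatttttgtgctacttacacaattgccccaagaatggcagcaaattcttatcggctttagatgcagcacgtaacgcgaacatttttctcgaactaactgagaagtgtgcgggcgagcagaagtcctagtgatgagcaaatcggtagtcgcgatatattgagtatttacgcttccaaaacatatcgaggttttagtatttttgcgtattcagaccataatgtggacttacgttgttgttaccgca
bt: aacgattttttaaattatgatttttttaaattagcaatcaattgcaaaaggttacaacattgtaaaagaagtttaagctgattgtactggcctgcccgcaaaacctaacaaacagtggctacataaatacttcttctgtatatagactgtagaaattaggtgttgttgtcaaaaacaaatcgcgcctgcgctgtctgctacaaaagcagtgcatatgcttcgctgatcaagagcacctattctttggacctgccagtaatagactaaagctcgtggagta
Cadps: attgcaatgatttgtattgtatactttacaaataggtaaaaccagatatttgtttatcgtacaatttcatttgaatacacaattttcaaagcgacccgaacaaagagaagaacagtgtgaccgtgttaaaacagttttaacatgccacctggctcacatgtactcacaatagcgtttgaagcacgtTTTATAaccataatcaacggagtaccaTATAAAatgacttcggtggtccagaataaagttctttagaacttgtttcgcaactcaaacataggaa
Syt7: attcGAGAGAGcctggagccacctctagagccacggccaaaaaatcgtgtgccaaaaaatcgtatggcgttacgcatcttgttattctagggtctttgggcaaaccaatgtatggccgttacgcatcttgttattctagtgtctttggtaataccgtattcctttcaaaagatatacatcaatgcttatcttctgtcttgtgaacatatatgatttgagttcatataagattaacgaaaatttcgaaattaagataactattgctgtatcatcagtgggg

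The windows are chr4:1029332-1029611 and chr4:1031728-1032007 on the minus strand for Mpv17 and CG11076, and chr4:724150-724429 and chr4:1230587-1230866 on the plus strand and chr4:306452-306731 on the minus strand for bt, Cadps and Syt7. Peaks reached into the windows of CG11076 in 6 libraries, Mpv17 in 3 and Cadps in 2. Over all 75 member promoters the DRE was found in 6.67%, the E-box in 4%, TATAAA in 33.3% and GAGAG in 22.7%, against 9.21%, 16.5%, 44.4% and 28.2% of all 13945 promoters of the same length. At the 5′-most start a peak lay within 500 bp in every library for 11 members, and none of these 11 windows held the DRE, which was in 17.2% of the 5101 such windows on the other arms. The 11 windows are few, and this difference was not tested. With a peak near that start in no library, the DRE was in 5% of 40 member windows and 1.89% of 6366 windows on the other arms. The median GC content of the 11 windows was 32.9%, against 33.8% for these 40 member windows. The order was the opposite when peaks at any start were counted. The median was then 38.2% for the 13 members with a promoter peak in all 6 libraries and 33.4% for the 36 with none.

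The 35 members with no peak over their span in any library included 5 of the 10 longest. These are bt (projectin, a titin-like protein of muscle, 52075 bp), Cadps (a factor of dense-core vesicle release, 40923 bp), Syt7 (synaptotagmin 7, a calcium sensor of membrane fusion, 27797 bp), Mitf (a regulator of lysosomal genes, 25616 bp, of which 66.4% are unresolved bases of the reference where no read can map) and sv (a Pax transcription factor of eye and bristle, 24520 bp). Cadps starts 124 bp from Dyrk3 on the opposite strand, and a peak near both starts gave it a promoter peak in LaminB KD replicate 1 and mock replicate 2 although none reached its span. Tdg, a thymine DNA glycosylase, and Pur-alpha, a single-strand nucleic acid binding protein, likewise start 162 bp apart and shared 1 peak in all 6 libraries, which cannot be divided between them.

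A further 6 members had a peak in LaminB KD replicate 1 alone, the library with the most peaks. The longest were Ank (ankyrin, a spectrin adaptor of the membrane) with a covered share of 4.77%, Eph (the receptor of Ephrin) with 2.83% and Cals (calsyntenin) with 6.92%, each 0% in the other 5 libraries. Their peaks had a fold of 1.97 to 2.46, below the median of 2.65 for chromosome 4 in that library.

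Grouped by role, 8 of 14 listed transcription factors and coactivators (57.1%) had no peak in any library, near the 46.7% of all 75 members. A peak in any library was found at 6 of them and pan, zfh2 and toy had a promoter peak in all 6, while the Pax genes ey and sv, the Hedgehog effector ci, and pho, onecut, dati, fuss and Mitf had none. After zfh2, lgs (the BCL9 homolog, a coactivator that binds beta-catenin) had the highest mock share. Its covered share was 0% and 7.86% after AGO2 KD, 12.5% and 0% after LaminB KD and 7.17% and 5.49% in mock. toy, a Pax6 gene, had a strong but narrow peak at its start, of 4.44 to 5.53 fold and 250 to 901 bp, and a covered share of 0.956% and 1.40% after AGO2 KD, 10.4% and 0.879% after LaminB KD and 1.23% and 1.58% in mock. In LaminB KD replicate 1 alone a second peak of toy began 10073 bp after the start.

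Over all 75 members 53.3% had a peak in some library and 17.3% a promoter peak in all 6. Over all protein-coding genes these shares were 56.7% and 39.9%. The role lists are short, and their counts were not tested against these shares. Ligands and receptors had a peak in 6 of 8, but myo alone had a promoter peak in every library. The others were PlexA and PlexB (semaphorin receptors), Ephrin, Eph and mav (a TGF-beta family ligand), of which PlexA had promoter peaks in 4 libraries and the rest in 1 each, and mGluR and Actbeta had none. Among 6 kinases and adaptors, Asator (a tau tubulin kinase homolog) had a promoter peak in all 6 libraries and CaMKII in 5, Crk and Dyrk3 in 2 each, and bt and PIP4K in none.

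In translation, mRNA decay and protein turnover a peak was found at all 4 listed members (Rad23, gw, Gyf and eIF4G1), against 53.3% of all 75. Their median mock share was 18.7% against 0% over all 75. The list does not hold 4E-T, another gene of translation, whose mean mock share was 5.74%. gw, the GW182 protein of microRNA silencing (FBgn0051992, chr4:649041-660608, minus strand), had 10.7% and 30.0% after AGO2 KD, 34.3% and 5.52% after LaminB KD and 24.0% and 25.9% in mock. Its promoter peak was missing in LaminB KD replicate 2, which kept peaks beginning 2496 and 3851 bp after the start. Gyf, a repressor of translation, had 10.9% and 14.5% after AGO2 KD, 23.5% and 4.00% after LaminB KD and 12.1% and 12.9% in mock, and eIF4G1, the scaffold of the cap-binding complex, had 0% and 0% after AGO2 KD, 4.51% and 0% after LaminB KD and 0% and 2.35% in mock. Another list held 10 genes of the cytoskeleton, synapse, membrane traffic or transport. Of these, Zip102B (a transporter) and unc-13 (a synaptic vesicle priming factor) had a promoter peak in all 6 libraries, against 17.3% of all 75 members. PMCA had one in 5, Ank, Arl4 and Cals in 1, and Syt7, Zyx, apolpp and Kif3C in none.

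AGO2 KD was compared with mock to ask whether Pol II S5 at these genes moved with AGO2. Mean body coverage was 1.87% ± 0.556 after AGO2 KD and 2.68% ± 0.346 in mock, and the mean covered share 3.60% ± 0.717 after AGO2 KD and 5.26% ± 0.0294 in mock (n = 2 libraries each, SD). A promoter peak was present at 28.0% ± 1.89 of the members after AGO2 KD and 36.0% ± 0 in mock. The differences of −0.812, −1.65 and −8 points were larger than the pooled SD between replicates and the groups did not overlap in any of the 3 measures. The groups overlapped in body coverage when only the upper 50% of peaks by score were used (−0.370 points) or the body was taken from 1000 bp (−0.484 points), and in promoter share at equal peak numbers (−2.67 points). The 3 differences on all peaks gave p = 0.333 each in an exact two-sided permutation test, the smallest p that 2 against 2 libraries allow, so that none can pass 0.05.

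The same measures were lower on the other arms too. Body coverage in AGO2 KD was 69.7% of its mock value on chromosome 4 and 66.5% on the other arms, and the share of genes with a promoter peak was 77.8% of its mock value on chromosome 4 and 92.4% on the other arms. At equal peak numbers these were 79.2% on chromosome 4 and 68.4% on the other arms for bodies, and 90% on chromosome 4 and 94.1% on the other arms for promoters. Chromosome 4 minus the other arms, the change in body coverage differed by 4.34 points and the groups overlapped (p = 0.667, exact permutation test). The AGO2 KD lists also held fewer peaks in 3 of the 4 pairings with mock, and their part in the decrease was not tested beyond equal peak numbers, where the body difference was −0.421 points.

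Counting single genes, both AGO2 KD libraries lay below both mock libraries in covered share at 16 members (21.3%) and above them at 0. Over all 13945 protein-coding genes 23.9% lay below and 0.251% above, so the members' count was near the background in both directions. With equally many peaks taken from each library 9 members (12%) lay below, against 22.1% of all genes. The 16 included, by the gap between the nearest libraries, Arf4, Slip1, myo, CG33941, 4E-T, unc-13, CG11076, Rad23, zfh2, Tdg, Asator, Hcf, CG31998, pan and Pur-alpha, and 3 of them had a gap of at least 10 points. Of the 5 with the widest gap, only myo kept it at equal peak numbers: Arf4, Slip1 and CG33941 then had no peak in any library and 4E-T had one in mock replicate 1 alone.

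Arf4, a small GTPase of the ADP-ribosylation factor family (FBgn0013749, chr4:1124167-1125325, plus strand), had no peak in either AGO2 KD library, against 55.0% and 19.0% in mock. LaminB KD gave 63.8% and 0%. The mock libraries differed here, with a peak of 637 bp that began 99 bp after the start in replicate 1 and one of 220 bp 530 bp after the start in replicate 2.

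Slip1, named for its interaction with the Slowpoke potassium channel (FBgn0024728, chr4:663621-669884, plus strand), was likewise covered for 0% and 0% after AGO2 KD and for 13.4% and 13.5% in mock, by a peak of 837 and 846 bp at 3.02 and 2.5 fold. LaminB KD had 11.1% and 0%. The mock replicates are nearly alike here, and their peaks rank in the lower 29% and 21% of their libraries by fold.

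At myo (myoglianin, a TGF-beta family ligand; FBgn0026199, chr4:690686-696055, minus strand) the peak was kept and was shorter. Its width was 230 and 285 bp after AGO2 KD and 878 and 896 bp in mock, with 841 and 213 bp in LaminB KD, and the covered share was 2.20% and 2.72% after AGO2 KD, against 14.1% and 13.7% in mock. The fold over input ran the other way, at 6.34 and 5.32 after AGO2 KD and 4.89 and 4.24 in mock. The stretch not covered in AGO2 KD lay downstream of the start, and body coverage was 0% and 0% in AGO2 KD against 5.24% and 4.85% in mock.

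CG33941 (FBgn0262731, chr4:467497-471476, plus strand) had a peak of 165 and 191 bp in mock alone, covering 4.15% and 4.80% of it, and none in the 4 knockdown libraries. 4E-T, which binds eIF4E and represses translation (FBgn0052016, chr4:951542-958392, minus strand), had 0% and 0% in AGO2 KD against 3.5% and 7.98% in mock, and 16.4% and 0% in LaminB KD. Both rest on peaks of 165 to 547 bp at 2.48 to 3.26 fold in mock.

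**Figure D5:**
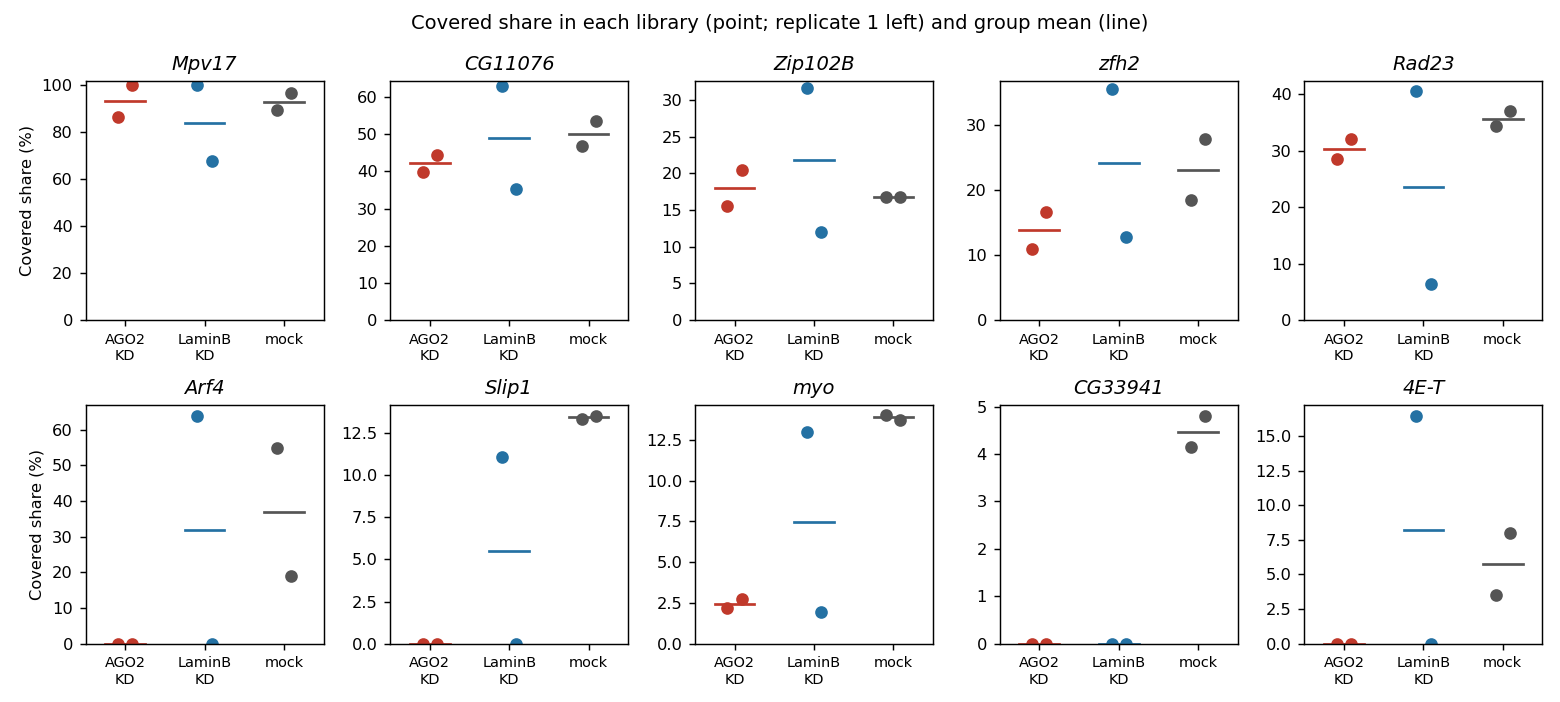
Covered share (percent of the gene under peaks) of 10 members in each library, as points with the group mean as a line, for AGO2 KD (red), LaminB KD (blue) and mock (grey). The upper row has the 5 members with the highest minimum over libraries and the lower row the 5 with the widest gap between AGO2 KD and mock, where Arf4, Slip1, CG33941 and 4E-T are at 0% in both AGO2 KD libraries, a separation that these 4 do not show at equal peak numbers.

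In LaminB KD against mock the replicates lay on either side of mock in nearly everything measured. Mean body coverage was 2.92% ± 2.45 after LaminB KD and 2.68% ± 0.346 in mock, and the mean covered share 5.10% ± 4.18 after LaminB KD and 5.26% ± 0.0294 in mock (n = 2 libraries each, SD). A promoter peak was present at 34.0% ± 23.6 of the members after LaminB KD and 36.0% ± 0 in mock. The differences of 0.241, −0.157 and −2 points were smaller than the spread between replicates (p = 1 each, exact permutation test). The promoter difference came to 14.7 points when LaminB KD replicate 2 was left out and to −18.7 points when replicate 1 was, so that its direction was set by 1 library.

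No member lay above both mock libraries in both LaminB KD libraries and 3 lay below, against 0.158% and 1.31% of all genes. The 3 were CG33941, Slip1 and myo, which were also among the 5 widest gaps in AGO2 KD; both comparisons share the mock libraries. At Slip1 and myo LaminB KD replicate 1 was close under mock, with gaps of −2.30 and −0.726 points, and replicate 2 accounted for the distance. At CG33941 both were at 0%.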

How the data were processed

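The data are Pol II S5 ChIP-seq peak lists of 6 immunoprecipitated Kc167 libraries. Per the submitters' processing notes, the authors trimmed reads with cutadapt 1.10, aligned them to dm6 with Bowtie2, removed duplicates with Picard 2.11.0 and called peaks with MACS2 2.1.1.20160309. According to the methods, reads with a mapping quality under 20 were removed, and broad regions were called for each replicate against its own input. The deposited score is 10 times the −log10 q-value, truncated. The deposited fold is a ratio over the local background. The authors gave p-values and q-values as −log10. These values rank peaks, and no read counts were used here.

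Genes came from Ensembl release 115 (BDGP6.54), whose chromosomes match dm6, and sequences and soft-masking from the RefSeq Release 6 assembly. Covered share, promoter peak (500 bp either side of any start) and body coverage (genes of 2 kb or more, from 500 bp after the start) were computed in Python 3.11.15 with numpy 2.4.6 and pandas 2.3.3, and checked on simulated peaks. A peak counted as overlapping at 1 bp. The study tested read counts, which peak lists do not hold, so libraries were compared by exact permutation tests. Named genes were chosen by rank of covered share (gap between groups, minimum over libraries), by length among genes with no peak and by role list, where Thd1 and nos matched no symbol. 1 member and 1 promoter sequence are counted but not reported here. The members, lists and rules were chosen with earlier results of these data known. Alternatives were the peak threshold, windows, gene subsets, leaving out each library and a replicate block.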

Additional observations from a re-analysis of the deposited data

How the results depend on the processing

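Chromosome 4 minus the other arms kept its sign and p = 0.03125 (exact) in body coverage, promoter share and peak width under every alternative on peaks, windows and genes, and leaving out 1 library makes 0.0625 the smallest p. Leaving out each library gave −12.9 to −9.30 points for bodies, −17.9 to −14.2 points for promoters, −229.1 to −191.9 bp for width and −0.096 to −0.076 for log2 fold. The log2 fold was −0.027 at equal peak numbers, −0.076 near starts and 0.12 in the upper 50% of peaks, and the cause was not tested.

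Leaving out each library in turn gave, for AGO2 KD minus mock, −1.21 to −0.419 points of body coverage, −2.16 to −1.14 points of covered share, −9.33 to −6.67 points of promoter share and 2.02 to 6.67 points for the change on chromosome 4 minus the other arms. Members higher in AGO2 KD numbered 0 to 6 and lower ones 16 to 24 (6 higher without AGO2 KD replicate 1, 2 without mock replicate 1). For LaminB KD minus mock the ranges were −1.49 to 1.97 points of body coverage, −3.11 to 2.80 points of covered share, −18.7 to 14.7 points of promoter share and −9.79 to 8.32 points for the change on chromosome 4 minus the other arms, so each of these turned with the LaminB KD replicate left out. Body coverage also turned without mock replicate 1 (−0.0039, and 1.43 for the change). Members higher in LaminB KD numbered 0 to 34 and lower ones 3 to 25, the extremes being without LaminB KD replicate 2 (34 higher) and replicate 1 (25 lower), with 5 lower without mock replicate 2.

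Body coverage in AGO2 KD minus mock was −0.421 points at equal peak numbers, −0.370 in the upper 50% of peaks, −0.484 from 1000 bp and −1.54 over genes with any peak, and the covered share −0.673 and the promoter share −2.67 points at equal peak numbers. With equal peak numbers 1 member was higher in AGO2 KD and 1 in LaminB KD, and 9 were lower in AGO2 KD. In the upper 50% of peaks 7 were lower in AGO2 KD and 1 in LaminB KD, and with a gap of at least 10 points 3 and 0 were. The median over members gave differences of 0 points for AGO2 KD in body coverage and covered share, 0 for LaminB KD in body coverage and 0.45 in covered share, since most members are at 0%.

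With the replicate number as a replicate block the differences were the same by construction, −0.812 points for AGO2 KD and 0.241 points for LaminB KD in body coverage, with p = 0.5 and p = 1 (exact sign flips of 2 pairs, which cannot go below 0.5). The samples share only a number: over all genes the deviations of same-numbered libraries correlated at 0.30 for AGO2 KD and mock and −0.46 for LaminB KD and mock, and a crossed pairing of LaminB KD, added after seeing the data, left p at 1. The limits are 2 libraries a group, no read counts, and LaminB KD replicates that lie on either side of mock.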

Other observations

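The 5 genes that the symbol rule left out were more covered than most members. RpS3A, a protein of the small ribosomal subunit, was covered for 57.4% and 61.5% after AGO2 KD, 63.5% and 55.2% after LaminB KD and 59.0% and 60.2% in mock. ATPsynbeta, a subunit of the mitochondrial ATP synthase, was covered for 52.6% and 55.1% after AGO2 KD, 80.6% and 49.1% after LaminB KD and 79.4% and 79.4% in mock, and both genes had a promoter peak in every library. ND-49, of respiratory complex I, had 22.1% and 22.3% after AGO2 KD, 40.9% and 12.2% after LaminB KD and 24.4% and 23.1% in mock. Taf3 and MED26, of TFIID and Mediator, had no peak in LaminB KD replicate 2 (0% each) and had 16.0% and 25.6% (Taf3) and 11.5% and 11.9% (MED26) in mock.

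Of 38 noncoding genes annotated on chromosome 4, 8 had a peak in any library and 4 in all 6. Among the 19 that lie outside protein-coding genes, lncRNA:CR46488 alone had a peak, with 21.3% and 61.8% covered after AGO2 KD, 68.3% and 17.0% after LaminB KD and 52.5% and 55.4% in mock. CR43361 lies inside unc-13 and was covered for 32.7% and 31.6% after AGO2 KD, 100% and 33.1% after LaminB KD and 55.8% and 96.5% in mock, so that part of the coverage counted for unc-13 lies over it. lncRNA:CR43958 lies inside Tdg at its start and had 65.4% to 96.6% in the 6 libraries.

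The genes that encode regulators of HP1 chromatin and of chromosome 4 lie on other arms. Each of 12 had a peak in some library, against 56.7% of all protein-coding genes, and 10 had a promoter peak in all 6, against 39.9%, with a median mock share of 26.1%. The gene of HP1a itself had 47.6% and 52.1% after AGO2 KD, 78.6% and 46.3% after LaminB KD and 79.2% and 52.8% in mock. Pof had 2.15% and 9.81% after AGO2 KD, 82.9% and 4.91% after LaminB KD and 17.5% and 44.1% in mock, and egg, which encodes the Setdb1 enzyme, had 0% and 4.78% after AGO2 KD, 65.0% and 4.30% after LaminB KD and 8.97% and 17.4% in mock. In AGO2 KD 5 of the 12 lay below both mock libraries and 0 above, against 23.9% and 0.251% of all genes, and in LaminB KD 0 lay below and 0 above, against 1.31% and 0.158%. These shares are not on like terms. Of all genes 43.3% had no peak in any library and so cannot lie below, while each of the 12 had a peak.

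Of the peaks on chromosome 4, 3 and 5 touched an annotated transposable element after AGO2 KD, 15 and 4 after LaminB KD and 7 and 6 in mock, or 8.11% to 19.7% of the peaks of a library.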
